A study of Mus musculus with 12 samples.

Results

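Neurexins, neuroligins and LRRTM proteins are cell adhesion molecules that meet across the synaptic cleft. The 9 genes described here are Nrxn2, Nrxn3, Nlgn1, Nlgn2, Nlgn3, Lrrtm1, Lrrtm2, Lrrtm3 and Lrrtm4, chosen by symbol from a table of 14909 genes. All 9 passed the filter on low counts. They were measured by bulk RNA sequencing of frontal cortex from C57BL/6 mice. There were 7 wild-type (WT) mice and 5 mice lacking Upf3b (KO), with 1 library per mouse. Upf3b is an X-linked gene whose protein acts in nonsense-mediated mRNA decay (NMD), which degrades transcripts with a stop codon far upstream of an exon junction. The labels do not give the age or sex of the mice or the design of the null allele. The comparison asks whether these adhesion genes are expressed at different levels when Upf3b is absent.

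Neurexins are presynaptic receptors made in long and short forms from separate promoters and in many splice forms. Neuroligins are their postsynaptic ligands: neuroligin 1 is found mainly at excitatory synapses, neuroligin 2 at inhibitory synapses and neuroligin 3 at both. LRRTMs are postsynaptic leucine-rich repeat proteins of excitatory synapses that bind the same neurexins. A short exon at the neurexin splice site called 4 affects the choice of partner, since some LRRTMs bind forms without it and cerebellins bind forms with it.

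The exon at splice site 4 of Nrxn3 is shown because it affects binding of some LRRTMs and of cerebellins. The counts were made per gene and could not separate forms with and without it. It is 90 bases long, so its inclusion keeps the reading frame. It lies at chr12:90199147-90199236 on the plus strand (GENCODE M21, GRCm38), and 5 annotated transcripts hold it while 2 skip it.
Nrxn3: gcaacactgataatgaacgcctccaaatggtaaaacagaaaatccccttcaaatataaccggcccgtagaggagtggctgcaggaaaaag

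Annotated NMD transcripts were found for 2 of the 9 genes, Nrxn3 and Lrrtm1, and their stop codons are shown because Upf3b acts on such transcripts. In Nrxn3-208 and Nrxn3-213 the stop at chr12:90322043-90322045 lies 596 bases upstream of the last exon junction. In Lrrtm1-201 the coding sequence ends at the usual stop, at chr6:77245128-77245130, but a further exon is spliced on downstream and the last junction lies 316 bases beyond the stop. The stop codon is in capitals.
Nrxn3-208 and Nrxn3-213: gtagtacactcaTAGacacacccctcccct
Lrrtm1-201: gaatgcgaggtgTGAttgtcccagaggctc

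Upf3b itself was nearly lost from every KO library, at 1.71 to 3.79 CPM (counts scaled to the same library size in every mouse) against 33.8 to 40.9 in WT, so no library went against its label. Library totals ran from 4684039 to 5425774 counts in WT and from 4990643 to 6617759 in KO, and 4 KO libraries were deeper than every WT library. KO 1 was the exception. Differences followed how densely a gene was counted: with genes split into 10 bins by count per exonic base, the median difference (log2 KO over WT) ran from 0.25 in the sparsest bin to -0.18 in the densest. Results are therefore given also with density offsets, which remove this trend from each library. The cortical markers Slc17a7 and Tbr1 stood at 398 and 164 CPM on average in WT. Marker sums for striatum overlapped between the groups, at 331 to 891 CPM in WT and 397 to 784 in KO.

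Of the 9 adhesion genes 2 were called between KO and WT, a share not far from that over all genes, and the differences were small. Lrrtm3 fell and Nlgn3 rose by edgeR's quasi-likelihood test at an adjusted p under 0.05, and the other 7 genes did not pass. That is 22.2% of the 9, against 29.7% of all 14274 tested genes called in either direction (15.3% higher and 14.4% lower). The median log2 fold change of the 9 was -0.018, beside 0.034 over all tested genes. With density offsets 1 of the 9 was called, Lrrtm3, against 8.48% of genes higher and 7.96% lower. The estimated difference was under 15% in either direction in all 9 genes.

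**Figure D1:**
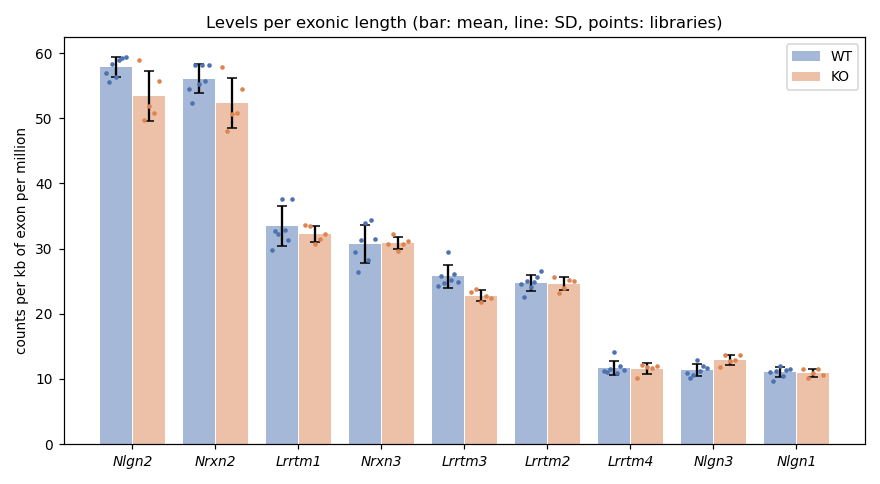
Level of each gene per exonic length, in CPM per kilobase of exon, in 7 WT and 5 KO libraries (bar: mean, line: SD, points: libraries). Nlgn2 and Nrxn2 stand above 50 in WT, and Lrrtm4, Nlgn3 and Nlgn1 near 11.

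Per exonic length, taken over the RefSeq transcripts of each gene, the 9 genes fell into 3 tiers in WT cortex. Nlgn2 stood at 57.8 ± 1.55 and Nrxn2 at 56.1 ± 2.23 CPM per kilobase (SD, n = 7), and their libraries overlapped. Lrrtm1 (33.4 ± 3.03), Nrxn3 (30.7 ± 2.89), Lrrtm3 (25.8 ± 1.79) and Lrrtm2 (24.8 ± 1.25) formed the middle tier on the same scale, in which each gene overlapped the next. Lrrtm4 (11.7 ± 1.09), Nlgn3 (11.3 ± 0.928) and Nlgn1 (11.1 ± 0.778) also overlapped each other, and no library of theirs reached the middle tier. The highest gene was 5.22 times the lowest. These levels depend on the transcripts used for the length. For Nrxn2 the length used was 6667 bases, but all its annotated transcripts together cover 13812. The longer length would lower its level per kilobase and its count density, so its tier and its density bin hold for the length used.

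Within the neuroligins Nlgn2 made up most of the summed level per length, with 72.1% ± 1.41 in WT and 69.0% ± 1.71 in KO (SD). Nlgn3 took 14.1% ± 0.890 in WT and 16.8% ± 1.52 in KO, and Nlgn1 took 13.8% ± 0.671 and 14.2% ± 0.792. Among the LRRTMs the shares were more even: Lrrtm1 held 34.9% ± 1.60 of the sum in WT, Lrrtm3 26.9% ± 1.13, Lrrtm2 25.9% ± 1.64 and Lrrtm4 12.3% ± 0.692. In KO the Lrrtm3 libraries held 24.4% to 25.7%, against 24.8% to 28.1% in WT. These shares are descriptions and were not tested. They also take no account of the trend with count density. Nlgn2 was in bin 10 of count density, where the median log2 fold change was -0.18, and Nlgn3 in bin 5, where it was 0.095. With density offsets the log2 fold change was 0.027 for Nlgn2 and 0.10 for Nlgn3, and neither was called.

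Of the neurexins, the presynaptic side of the pair, neither gene passed. Nrxn2 lies on the plus strand at chr19:6418731-6544169. It stood between 349 and 388 CPM in WT, with a median of 372. In KO it was 386 in KO 1, 320 in KO 2, 337 in KO 3, 339 in KO 4 and 363 in KO 6. The 3 lowest values of all belonged to KO mice, while KO 1, the KO library with a total inside the WT range, lay among the highest WT values. The log2 fold change was -0.099 ± 0.048 (SE, edgeR adjusted p = 0.134). It was -0.14 without KO 1 (adjusted p = 0.0226) and 0.038 with density offsets (adjusted p = 0.442).

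Nrxn3, on the plus strand at chr12:88722876-90334935, spans 1612.1 kb and is by far the longest of the 9 genes. It ranged from 250 to 324 CPM in WT (median 296) and from 279 to 304 in KO (median 290.2). The KO libraries all lay inside the WT range. The log2 fold change was 0.0079 ± 0.059 (SE, edgeR adjusted p = 0.934), with an approximate 95% interval of -0.12 to 0.14. For the gene with the premature stop shown above, the gene-level count thus did not differ detectably. In this fit a difference of over 10.2% upward lies outside the interval, but that bound depends on the fit. With density offsets the value was 0.049 ± 0.061, and with library totals as a covariate it was -0.0032 ± 0.10 (SE). The NMD transcript was not measured apart from the others.

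**Figure D2:**
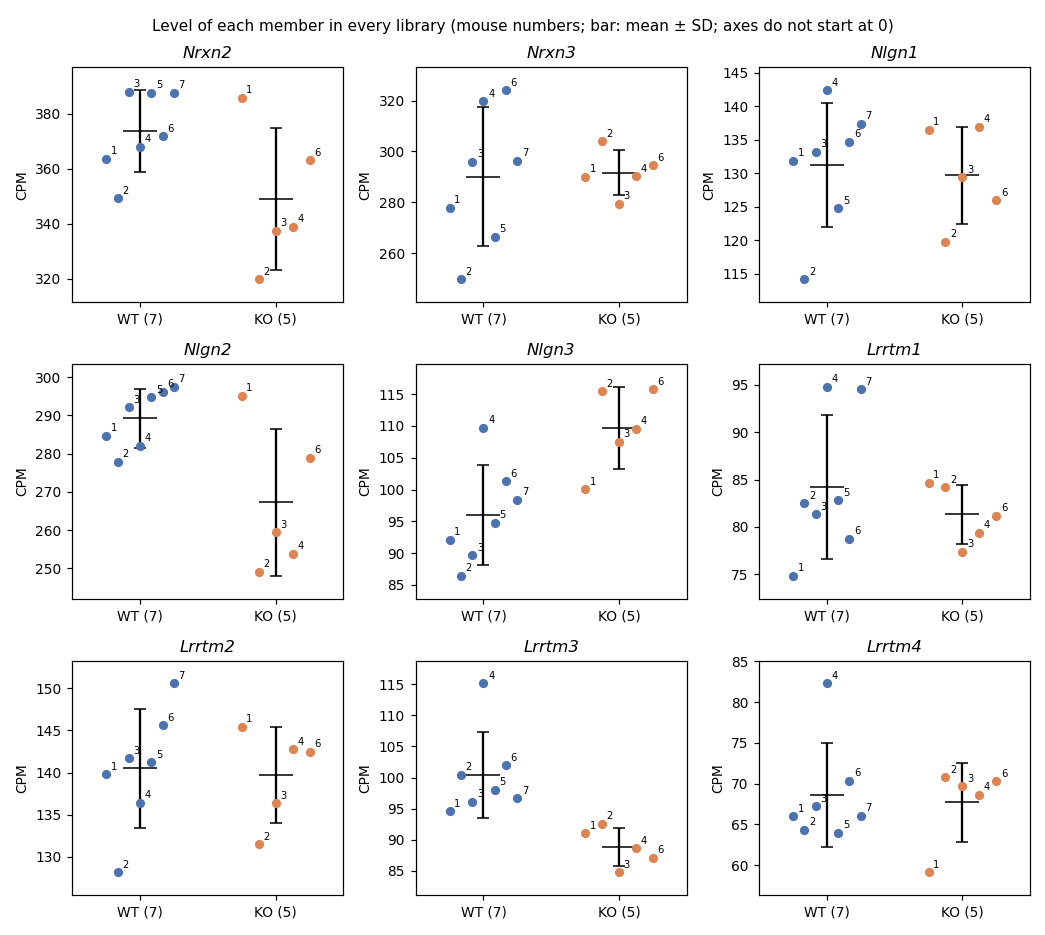
CPM of each gene in every library, with mouse numbers beside the points and the mean ± SD as a bar; the axes do not start at 0. In Lrrtm3 all 5 KO libraries lie below all 7 WT libraries, and in Nrxn2 and Nlgn2 KO 1 sits apart from KO 2, 3 and 4.

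Of the neuroligins, Nlgn1, the excitatory synapse member on the minus strand at chr3:25426215-26332460, showed no call. It ranged from 114 to 142 CPM in WT (median 133) and from 120 to 137 in KO (median 129). The log2 fold change was -0.017 ± 0.053 (SE, edgeR adjusted p = 0.836) and its approximate 95% interval ran from -0.13 to 0.10. With density offsets it was -0.12 (adjusted p = 0.151).

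Nlgn2, the inhibitory synapse member, lies on the minus strand at chr11:69823122-69837784. In WT it stood between 278 and 298 CPM (median 292). In KO it was 295 in KO 1, 249 in KO 2, 259 in KO 3, 254 in KO 4 and 279 in KO 6. The 3 lowest libraries were again KO 2, 3 and 4, and KO 1 lay inside the WT range. The log2 fold change was -0.12 ± 0.045 (SE, edgeR adjusted p = 0.0630; exact two-sided permutation p = 0.0328, not adjusted). The direction turned with density offsets, to 0.027 (adjusted p = 0.534), and the call was made with DESeq2's Wald test (-0.13, adjusted p = 0.0178), and without KO 1 (-0.15, adjusted p = 0.00705) or without WT 4 (-0.14, adjusted p = 0.0396).

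Nrxn2 and Nlgn2, a presynaptic receptor and an inhibitory postsynaptic ligand, had the most similar profiles of any pair among the 9. Their log2 CPM, each centred on its own mean, differed by a root mean square of 0.027 over the 12 libraries. Both were in the highest of the 10 bins of count density, in which 67.5% of all genes were called lower and 0.78% higher. The median log2 fold change of that bin, -0.18, was further from 0 than either gene's.

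Nlgn3, the X-linked neuroligin of both synapse types, rose. It lies on the plus strand at chrX:101299168-101325963. In WT it stood between 86.4 and 109.7 CPM, with a median of 94.8. In KO it was 100.02 in KO 1, 115 in KO 2, 108 in KO 3, 109.5 in KO 4 and 116 in KO 6. Only KO 2 and KO 6 lay above every WT library, since WT 4 was high. The mean went from 96.1 ± 7.86 to 109.6 ± 6.48 CPM (SD; n = 7 and 5), a log2 fold change of 0.19 ± 0.057 (SE, edgeR adjusted p = 0.0201; exact two-sided permutation p = 0.0202, not adjusted). The call was lost with density offsets (0.10, adjusted p = 0.163), with library totals as a covariate (0.062, adjusted p = 0.817) and without KO 6 (0.17, adjusted p = 0.0544).

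Nlgn3 is also expressed in oligodendrocyte precursors, and the markers of those cells moved with it. All 3 of 3 rose: Cspg4 by a log2 fold change of 0.50 ± 0.095, Gpr17 by 0.41 ± 0.079 and Pdgfra by 0.28 ± 0.074 (SE, edgeR adjusted p = 0.00190, 0.00197 and 0.0109), beside 15.3% of all genes higher. With density offsets 2 of 3 passed, Cspg4 at 0.33 and Gpr17 at 0.39 (adjusted p = 0.0124 and 0.00584), and Pdgfra at 0.21 did not (adjusted p = 0.0688), beside 8.48% of all genes higher. Their summed level was 191 to 246 CPM in WT and 265 to 320 in KO, and each marker was detected in every library. Their part in the result for Nlgn3 was not tested. In bulk tissue more cells of a type and more RNA per cell cannot be told apart. The tested genes nearest to Nlgn3 by profile were Slco3a1, Cgnl1 and Ptprf, with root mean square differences of 0.049, 0.052 and 0.053 on the log2 scale over the 12 libraries.

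**Figure D3:**
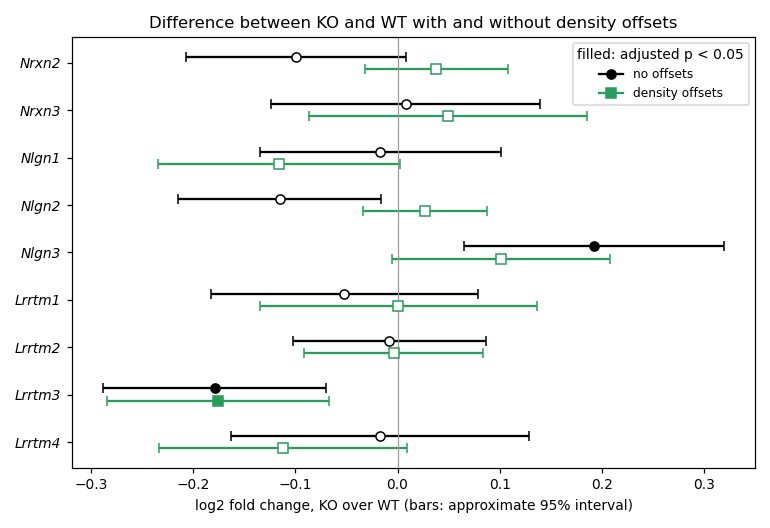
Log2 fold change (KO over WT) of each gene with its approximate 95% interval, without offsets (black circles) and with density offsets (green squares); filled symbols have an adjusted p under 0.05. Lrrtm3 is filled in both fits and Nlgn3 only without offsets.

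Lrrtm3 fell, and it was the 1 gene of the 9 whose groups did not overlap. It encodes a postsynaptic LRRTM that binds neurexins, and it lies on the minus strand at chr10:63928472-64090277. In WT it stood between 94.6 and 115 CPM, with a median of 98.0. In KO it was 91.0 in KO 1, 92.6 in KO 2, 84.7 in KO 3, 88.6 in KO 4 and 87.1 in KO 6. All 5 KO libraries, KO 1 included, lay below all 7 WT libraries. Groups without overlap, in either direction, were found in 10.6% of all tested genes. The mean went from 100.4 ± 6.97 to 88.8 ± 3.10 CPM (SD; n = 7 and 5), a log2 fold change of -0.18 ± 0.049 (SE, edgeR adjusted p = 0.0133). The exact two-sided permutation p was 0.00253, the smallest that 792 arrangements can give, and it was not adjusted.

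Genes counted as densely as Lrrtm3 had a median log2 fold change of 0.016. With density offsets Lrrtm3 stood at -0.18 (edgeR adjusted p = 0.0252). It was called in each of the 12 fits that left out 1 library, at -0.20 to -0.16. With library totals as a covariate the value was -0.24 and the call was lost (adjusted p = 0.242), and with density offsets it was lost without KO 3, KO 4 or KO 6 (-0.15, -0.17 and -0.16; adjusted p = 0.0725, 0.0592 and 0.0637). The tested genes nearest to it by profile were Nus1, Nudt11 and Sumo3, with root mean square differences of 0.047, 0.049 and 0.0497 on the log2 scale over the 12 libraries.

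The other 3 LRRTMs did not pass. Lrrtm1, on the plus strand at chr6:77242689-77257791, ranged from 74.8 to 94.8 CPM in WT (median 82.5) and from 77.3 to 84.7 in KO (median 81.2). Its log2 fold change was -0.052 ± 0.058 (SE, edgeR adjusted p = 0.532), with an approximate 95% interval of -0.18 to 0.078. This is the second gene with an annotated NMD transcript, and here too the gene-level count showed no detectable difference. Lrrtm2, on the minus strand at chr18:35209003-35215024, ranged from 128 to 151 CPM in WT and from 131 to 145 in KO, with a log2 fold change of -0.0083 ± 0.042 (adjusted p = 0.901).

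Lrrtm4, which also binds heparan sulfate proteoglycans and lies on the plus strand at chr6:80018877-80810143, ranged from 64.0 to 82.3 CPM in WT (median 66.1). In KO it was 59.1 in KO 1 and 68.6 to 70.8 in the other 4. KO 1 lay below and WT 4 above all other libraries, and the rest overlapped. The log2 fold change was -0.018 ± 0.065 (SE, edgeR adjusted p = 0.862), and it was 0.024 without KO 1 and 0.019 without WT 4. With library totals as a covariate it was -0.26 (adjusted p = 0.231). With density offsets it was -0.11 (adjusted p = 0.172).

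**Figure D4:**
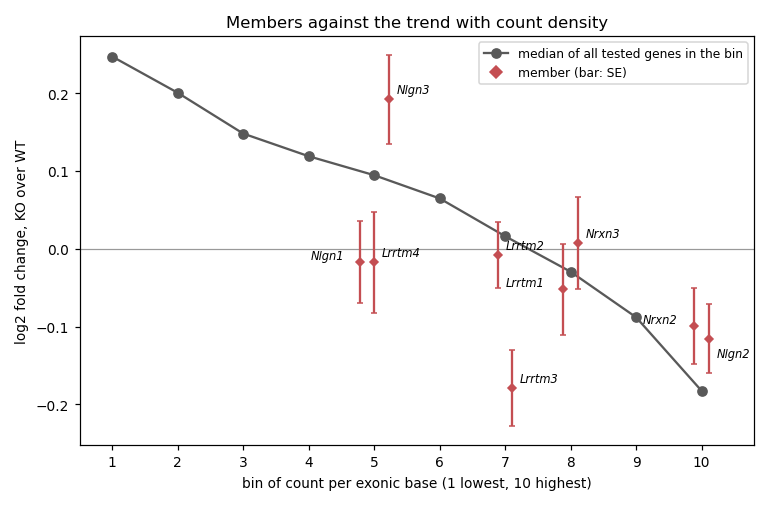
Log2 fold change of each gene (red, bar: SE) against its bin of count per exonic base, with the median of all tested genes in each of 10 bins (grey line). Nlgn2 and Nrxn2 are in bin 10, where the median is -0.18, and Lrrtm3 lies below the line in bin 7.

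Lrrtm1, Lrrtm2 and Lrrtm3 each lie inside an alpha-catenin gene on the opposite strand, which matters because the strand setting of the counting is not given in the sources used here. Alpha-catenins link cadherins to actin. Lrrtm1 lies within Ctnna2 and Lrrtm3 within Ctnna3, in each case with 0 bases of exon shared, and Lrrtm2 lies within Ctnna1 with 95 bases shared. Ctnna3 had only 6 to 26 counts per library, against 445 to 617 for Lrrtm3. None of the hosts was called: the log2 fold change was -0.13 ± 0.046 for Ctnna2 (SE, edgeR adjusted p = 0.0532), 0.023 ± 0.045 for Ctnna1 (0.730) and 0.38 ± 0.25 for Ctnna3 (0.277). Nrxn2 shares 682 exonic bases with Slc22a12 on the other strand, which had 0 to 16 counts and was not tested, and Nlgn3 shares 3823 with Gm21986 on the same strand. Exons on the other strand also overlap Lrrtm4 (1543 bases, Gm4409), Nlgn1 (1229, A830092H15Rik), Nrxn3 (439, Gm37980) and Nrxn2 again (207, Gm14964), so the counts of all these genes carry that uncertainty.

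Around these genes, 1 of 3 tested regulators of the splice site 4 exon was called, Khdrbs1, and it fell. Over all genes 14.4% were called lower and 29.7% either way. Khdrbs1 encodes SAM68, an RNA-binding protein that promotes skipping of this exon together with its relatives SLM1 (Khdrbs2) and SLM2 (Khdrbs3). It stood between 125 and 151 CPM in WT (median 143) and at 120, 109, 106, 106 and 113 CPM in KO 1, 2, 3, 4 and 6. No KO library reached the WT range, and 10.6% of all tested genes had groups without overlap. The log2 fold change was -0.36 ± 0.050 (SE, edgeR adjusted p = 3.14e-04), and it was -0.34 with density offsets (adjusted p = 5.20e-04). The call was lost with library totals as a covariate (-0.28, adjusted p = 0.163). Khdrbs3 was at -0.17 ± 0.075 (adjusted p = 0.0888) and Khdrbs2 at 0.11 ± 0.17 (adjusted p = 0.651). Inclusion of the exon was not measured.

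Extracellular partners of the 9 genes were mostly not called. Of 21 tested, such as cerebellins, neurexophilins, calsyntenins and the MDGA proteins that block neuroligins, 2 passed the test and both fell, beside 14.4% of all genes lower and 29.7% called either way. The median log2 fold change was 0.0039. Sparcl1 (hevin), an astrocyte protein that bridges neurexin and neuroligin, fell by 0.32 on the log2 scale (edgeR adjusted p = 0.00296) and Clstn1 by 0.28 (adjusted p = 0.00335). With density offsets both were near 0, at -0.0034 and -0.012. In that fit, which called 8.48% of all genes higher and 7.96% lower, Clstn3 was higher, at 0.12 (adjusted p = 0.00492), and Nxph2 lower, at -0.49 (adjusted p = 0.0424).

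Of 21 intracellular partners 6 passed the test and all 6 fell, with a median of -0.11, beside 14.4% of all genes lower, 15.3% higher and a median of 0.034. Dlg4 (PSD-95), the scaffold that binds neuroligin tails, fell by 0.26 on the log2 scale (edgeR adjusted p = 0.00229). Dlgap4, Dlgap1 and Lin7c fell by 0.13, 0.22 and 0.17 (adjusted p = 0.0159, 0.0186 and 0.0212). With density offsets, where 7.96% of all genes were lower and 8.48% higher, the median was 0.018, Dlg4 was the 1 gene that fell, at -0.10 (adjusted p = 0.0156), and Lin7a was the 1 that rose, at 0.15 (adjusted p = 0.0384). Gphn (gephyrin), the inhibitory scaffold that binds neuroligin 2, was at -0.041 (adjusted p = 0.549).

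**Figure D5:**
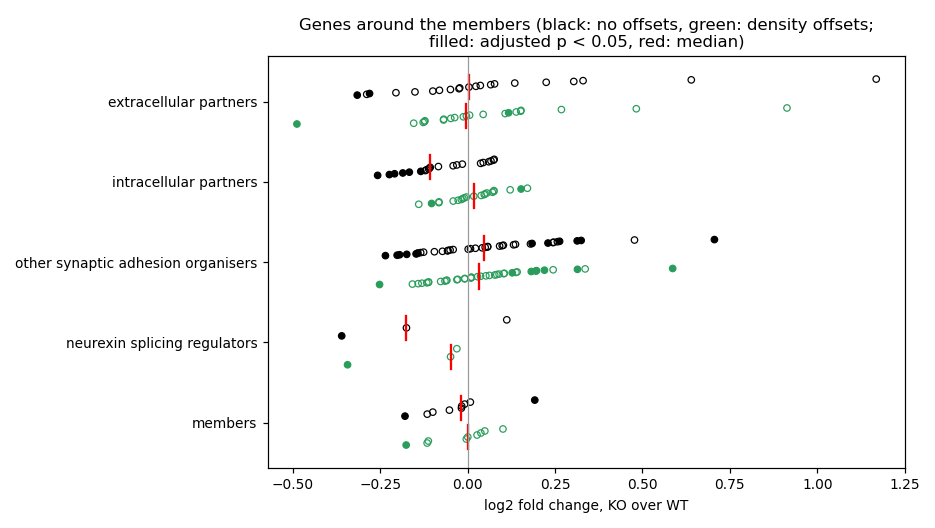
Log2 fold change (KO over WT) of every tested gene in 4 lists of partners and in the 9 adhesion genes, without offsets (black) and with density offsets (green); filled points have an adjusted p under 0.05 and red lines are medians. The intracellular partners have a median of -0.11 without offsets and 0.018 with them.

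Of 38 other synaptic adhesion organisers tested 6 rose and 6 fell, beside 15.3% of all genes higher and 14.4% lower, so the share called was close to that over all genes. Their median log2 fold change was 0.046. With density offsets 6 rose and 1 fell, beside 8.48% and 7.96% of all genes, but these were not all the same genes. Tenm2 and Flrt1 were no longer called higher, while Adgrl1 (0.13) and Ptprd (0.18) were. None of the genes that fell without offsets was called with them. The 1 that fell with offsets was Slitrk2 (-0.25), not called without them. Igsf9b, an adhesion protein of inhibitory synapses, rose by 0.71 ± 0.17 (SE, edgeR adjusted p = 0.00597). Elfn2 and Elfn1, postsynaptic proteins that recruit metabotropic glutamate receptors, rose by 0.32 ± 0.051 and 0.26 ± 0.061 (adjusted p = 6.81e-04 and 0.00546), and the receptor phosphatase Ptprf rose by 0.23 ± 0.049 (adjusted p = 0.00322). These 4 were named for having the smallest p of the list, a choice that favours groups standing apart. The KO and WT libraries did not overlap in any of the 4, and 10.6% of all tested genes showed no overlap. All 4 were also called with density offsets, at 0.20 to 0.59.

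Markers of other cells moved as well, against a background of 14.4% of all genes lower and 15.3% higher. Of 6 general neuronal markers 5 fell, the largest change being that of Snap25 (-0.36), and their summed level was 2330 to 2662 CPM in WT and 2065 to 2508 in KO. Their median log2 fold change was -0.23 without and -0.018 with density offsets. Of 6 microglial markers 4 fell (3 with density offsets), led by P2ry12 (-0.30), with sums of 442 to 547 CPM in WT and 401 to 437 in KO. Markers also fell in 3 of 6 for oligodendrocytes, 2 of 6 for astrocytes, 2 of 6 for inhibitory neurons and 2 of 7 for excitatory neurons, and rose in 2 of 4 for endothelial cells. With density offsets no marker of these 5 lists was called by edgeR. Their part in the results for the adhesion genes was not tested.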

How the data were processed

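The file the authors deposited holds raw counts, whole numbers of reads for each gene symbol in each mouse, not scaled or pooled, as its values show. The submitters' processing notes name STAR and mm10. No source used here gives the counter, its strand setting or how duplicate reads were treated. Groups and mouse numbers came from the sample titles, and p-values measure the spread between mice. The genes and lists were chosen with earlier results of these data known.

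Genes were tested with edgeR 4.0.16 (R 4.3.3): TMM factors, filterByExpr, a quasi-likelihood fit of group over 12 libraries, and Benjamini-Hochberg adjustment over 14274 genes at 0.05. CPM use TMM-scaled totals. Intervals at 95% use the SE and a t distribution. Permutation tests used log2 CPM with a pseudocount of 0.5. Exonic lengths and positions came from GENCODE M21 through the RefSeq accessions, 14437 genes matching by symbol, 420 by accession and 52 not. Density offsets are loess curves (span 0.4) of each library's deviation from the gene mean on count per exonic base, over 14100 genes. The fits were tested on simulated counts that held no trend with count density, so that test cannot show how well the offsets remove it. Named partner genes are the 4 called genes with the smallest p in each list; from cell type lists, the called gene with the largest change; and for each called adhesion gene the 3 nearest profiles. Other genes (Clstn3, Nxph2, Lin7a, Gphn, Khdrbs2, Khdrbs3, Gpr17, Pdgfra, Slc17a7, Tbr1, Tenm2, Flrt1, Adgrl1, Ptprd, Slitrk2) were chosen after their values were seen. DESeq2 1.42.0 and limma 3.58.1 served as alternatives. Library totals were 4684039 to 6617759 counts, and adhesion genes drew 0.149% to 0.163% of them. The closest libraries, WT 6 and WT 7, had a chi-square per degree of freedom of 1.02. A value near 1 means that they differed by little more than counting noise. The sample titles number them as separate mice and they were kept so, but whether they are independent was not tested.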

Additional observations from a re-analysis of the deposited data

Results flagged for a closer look

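In 3 of 18 groups, a pair for each of the 9 genes, the highest or lowest library lay far from the rest by Dixon's test at 95%, where chance flags about 1 in 20. Lrrtm3 in WT 4 was 115.13 CPM, with the next WT library at 102 and the lowest at 94.6. Without WT 4 the fall of Lrrtm3 was smaller, at -0.16, and still called (edgeR adjusted p = 0.00646). Lrrtm4 in WT 4 was 82.287 CPM, with the next at 70.3. Lrrtm4 in KO 1 was 59.111 CPM, with the other KO libraries at 68.6 or more.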

How the results depend on the processing

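Over 10 other settings Lrrtm3 kept its direction in 10 and its call in 9, and Nlgn3 kept its direction in 10 and its call in 7. The number of the 9 genes called lower was 1, and 2 with DESeq2 size factors, upper-quartile factors, DESeq2's Wald test and no filter on low counts, the added gene being Nlgn2 (-0.13, -0.12, -0.13 and -0.13). The number called higher was 1, and 0 with the replicate block, density offsets and library totals as a covariate, where 0 were lower too. Leaving out each library gave 0 to 1 higher and 1 to 3 lower. Over all genes 2183 were higher and 2050 lower, against 1129 and 1186 with the replicate block, 1195 and 1122 with density offsets, and 84 and 11 with library totals as a covariate, 4 KO libraries being deeper than every WT library. Nlgn3 lost its call with the replicate block (0.20, adjusted p = 0.0652) and Lrrtm3 kept it (-0.19, adjusted p = 0.0483). The block fits a term for each mouse number, which leaves fewer degrees of freedom for the test. For Nlgn3 the log2 fold change was 0.20 ± 0.063 with the block and 0.19 ± 0.057 without it (SE).

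Signs turned in 7 genes, with no call in any turned value. Nrxn3 was -0.010 with DESeq2 size factors, -0.011 with the Wald test, -0.0076 with no filter, -0.0041 with the replicate block, -0.0032 with the covariate and -0.026 to 0.036 with each library left out. Lrrtm2 was 0.014 with the block, 0.090 with the covariate and -0.030 to 0.013 with each library left out. Density offsets gave 0.038 for Nrxn2, 0.027 for Nlgn2 and 5.2e-04 for Lrrtm1, and the covariate gave 0.057 for Nrxn2, 0.036 for Nlgn2 and 0.019 for Nlgn1. Without KO 2 and WT 4 Nlgn1 was 0.019 and Lrrtm4 0.0060, and with each library left out they ran from -0.048 to 0.011 and from -0.034 to 0.024. The cause was not tested.

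The sample titles do not say whether mouse numbers shared by the groups (5 of them) pair the samples. Correlations of deviations from the group means ran from -0.38 to 0.14, and 0 KO libraries matched best with their own number. The deviations still held the trend with count density, so these values cannot settle whether the samples were paired. Standard errors of the 9 genes were 0.042 to 0.065 on the log2 scale, which limits what 12 libraries can show. Leaving out each library with density offsets, for Lrrtm3 and Nlgn3, was chosen after seeing the data and gave -0.20 to -0.14 and 0.079 to 0.13. Leaving out WT 6 or WT 7, the closest libraries, ended neither call.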
